A study of Homo sapiens with 17 samples.

Results

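ZNF184 eCLIP consisted of 2 libraries from 293T cells, each set against the same single size-matched input. All deposited peaks of both replicates were used, 63198 in replicate 1 and 53807 in replicate 2. Peaks of 1 strand with an overlap of 1 nt or more were joined, which gave 93734 regions. The 9 other eCLIP lists hold 272783 of the 389788 peaks in the series.

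293T is a human embryonic kidney line. eCLIP sequences the RNA fragments that were crosslinked to a protein by ultraviolet light and recovered with an antibody against it. Irradiation was 400 mJ per square cm at 254 nm, and RNA was taken from a gel window reaching 75 kDa above the protein. The size-matched input is RNA from that window without immunoprecipitation, and the series has 17 samples, 11 eCLIP libraries and 6 inputs, for 6 proteins (AIFM1, NUMA1, RANGAP1, RNF219, VIM and ZNF184). No genotype or treatment separates the groups: they differ by the antibody, and all the cells were irradiated.

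ZNF184 is a zinc finger protein of the KRAB family. Proteins of this family are known mainly as DNA-binding repressors, which read DNA with arrays of C2H2 fingers and recruit the co-repressor TRIM28 through the KRAB domain. Zinc fingers of this type can also contact RNA, and the comparison asks where on RNA ZNF184 was enriched over its input. Regions are given by hg19 position and strand. Genes, transcript parts, cell type markers and sequences were not analysed here.

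Each peak carries the authors' log2 fold over input and −log10 p. A peak counted as significant with both values at 3 or more, which is at least 8-fold. Folds were ratios of whole reads times a constant, the ratio of input depth to eCLIP depth, which was 1.36 in replicate 1 and 1.53 in replicate 2. A peak beside 1 input read therefore needed 11 eCLIP reads in replicate 1 and 10 in replicate 2 to be significant. Replicate 2 was sequenced to 0.891 of the depth of replicate 1. Among significant peaks with settled reads, the median was 18 eCLIP reads in replicate 1 and 19 in replicate 2, beside a median of 2 input reads in each. Inputs of 0 and of 1 read look the same in these folds. Total reads are unknown.

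In replicate 1, 1989 peaks were significant, 3.15% of the list (95% Wilson interval 3.01% to 3.29%). In replicate 2, 2592 peaks were significant, 4.82% (4.64% to 5.00%). These intervals treat peaks as independent, which they are not, and the share of each replicate lay outside the interval of the other. Over the 9 other libraries, 4825 of 272783 peaks were significant against their own inputs, 1.77%. The lowest share of a library was 0.214%, for AIFM1 replicate 2, and the highest was 5.29%, for VIM replicate 1. Both ZNF184 shares lay within that range. The weakest significant peak had a log2 fold of 3.00 in each replicate to 2 decimals, and so did the highest fold just under the threshold.

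Agreement between the replicates was partial. Of the 93734 regions, 20024 (21.4%) had a peak in both, 41438 in replicate 1 only and 32272 in replicate 2 only. Across the 20024 shared regions, the log2 folds had a Spearman rho of 0.803 and a Pearson r of 0.825. These are given as a description across regions, which are not independent, and both folds share the reads of 1 input. The difference of replicate 2 minus replicate 1 had a median of -0.04 and an SD of 0.75.

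**Figure D1:**
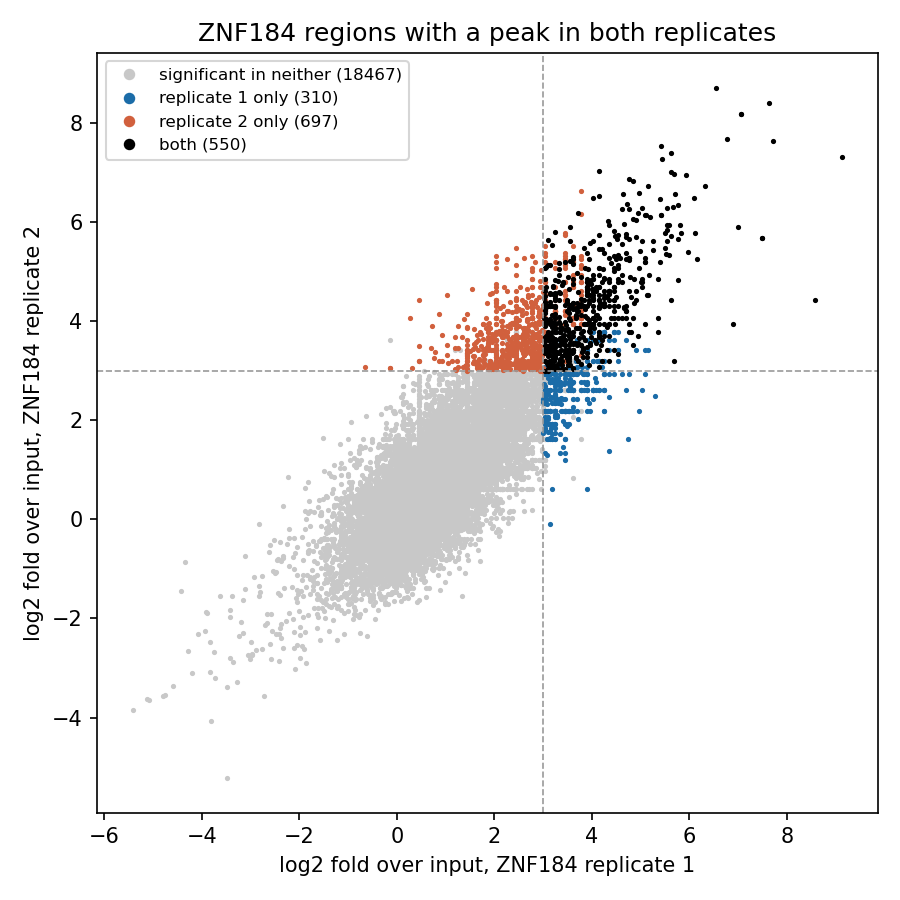
Log2 fold over input in ZNF184 replicate 1 (x axis) and replicate 2 (y axis) for the 20024 regions with a peak in both, 1 point per region, with dashed lines at the threshold of 3. The 550 regions significant in both are black, and the 310 and 697 significant in replicate 1 or 2 alone have median log2 folds of 2.61 and 2.56 in the other replicate.

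A significant peak was present in at least 1 replicate at 3781 regions and in both at 550, which is 2.75% of the regions with a peak in both. These 550 are called reproducible below. In replicate 1 only, 1357 regions were significant. Replicate 2 had a peak at 310 of them, with a median log2 fold there of 2.61, and 309 of these were above input. In replicate 2 only, 1874 regions were significant. Replicate 1 had a peak at 697 of them, with a median of 2.56, and 694 were above input. Most regions significant in 1 replicate alone had no deposited peak in the other, 1047 and 1177 of them. Over all regions, significant or not, 41438 had a peak in replicate 1 only and 32272 in replicate 2 only, against 20024 in both. A missing partner peak was thus common at all regions and is not read as a trait of the significant ones.

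The reproducible regions had a median lower fold not far above the threshold. Their median width was 49 nt (quartiles 33 and 69 nt), with 277 on the plus strand and 273 on the minus strand. The lower of the replicate folds had a median of 3.69 on the log2 scale (quartiles 3.25 and 4.27). Both folds reached 4 at 202 regions, 5 at 52, 6 at 9 and 7 at 5. The folds lay within 1 log2 unit of each other at 423 regions (76.9%) and over 2 units apart at 18. Replicate 2 was the higher at 382, with a median difference of 0.36.

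At 466 of the 550 reproducible regions (84.7%, 95% Wilson interval 81.5% to 87.5%), no library of another protein had a significant peak. The interval treats regions as independent, which they are not. Significant peaks were sparse, 1.77% over the other libraries. Of the ZNF184 regions themselves, 1357 and 1874 were significant in replicate 1 or 2 alone. The share of 84.7% was not set against a background and is not read as a trait of ZNF184. An absent peak can be a lack of reads, and the other libraries differ in depth against their inputs. At 143 of the 466, none of the 9 other libraries had any deposited peak. At the other 323, the highest fold of any other library had a median of 1.85 on the log2 scale, against 3.55 for the lower ZNF184 replicate. The highest other fold was below both ZNF184 folds at 313 of these. The regions were chosen as significant in ZNF184 and in no other protein, so this order is largely fixed by the choice. The regions outside the 466 were also significant in VIM (49 regions), RANGAP1 (28), NUMA1 (27), AIFM1 (17) or RNF219 (16). The 2 regions significant in all 5 other proteins are abutting pieces of 1 site with the same folds, chr6:31958260-31958265 and chr6:31958266-31958286 on the plus strand.

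By the lower of the replicate folds, the 2 highest regions were on chromosome 22. The region at chr22:42335675-42335703 on the minus strand, 29 nt wide, had a log2 fold of 7.72 in replicate 1 and 7.65 in replicate 2. Replicate 1 had at least 309 eCLIP reads there against at least 2 input reads, and replicate 2 at least 131 against at least 1. At chr22:42335741-42335784 the folds were 7.64 and 8.40. At chr22:42335527-42335598 they were 6.77 and 7.68. Regions shared with other proteins, on chromosome 19 (lower fold 7.31) and chromosome 6 (7.07), ranked above this last region and are given further on. None of the 9 other libraries had a peak at any of these 3 regions.

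These 3 regions belong to 1 stretch of 1010 nt with 8 reproducible regions, chr22:42335309-42336318 on the minus strand. Over the 8, folds ran from 4.50 to 7.72 in replicate 1 (median 5.64) and from 4.27 to 8.40 in replicate 2 (median 6.01). The lowest were at the high-coordinate end, chr22:42336207-42336229 with 4.65 and 4.27 and chr22:42336265-42336318 with 4.50 and 4.50. These last 2 rested on 277 eCLIP against 15 input reads and 300 against 18 in replicate 1, and on 177 against 14 and 266 against 18 in replicate 2. All 12 deposited peaks of replicate 1 and all 16 of replicate 2 in the stretch were significant, and no other library had a significant peak in it.

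Among loci with at least 4 reproducible regions, the next by median fold in replicate 1 lay on chromosome X. It spans 753 nt on the minus strand at chrX:73046976-73047728, with 7 reproducible regions. Folds ran from 3.02 to 5.76 in replicate 1 (median 4.72) and from 3.72 to 7.27 in replicate 2 (median 6.34). The replicate 2 median was above the 6.01 of the chromosome 22 stretch. Replicate 2 was higher at each of the 7. The ends were higher than the middle: chrX:73046976-73047159 had 5.76 and 6.34, chrX:73047290-73047337 had 3.07 and 3.72, and chrX:73047648-73047728 had 5.45 and 7.27. Input reads at chrX:73047290-73047337 were at least 145 beside the replicate 1 peak and at least 241 beside that of replicate 2. At chrX:73046976-73047159 they were at least 7 and 32, and at chrX:73047648-73047728 at least 29 and 16. All of these are least values, so input depth cannot be ranked along the stretch. No library of another protein was significant at any of the 7.

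**Figure D2:**
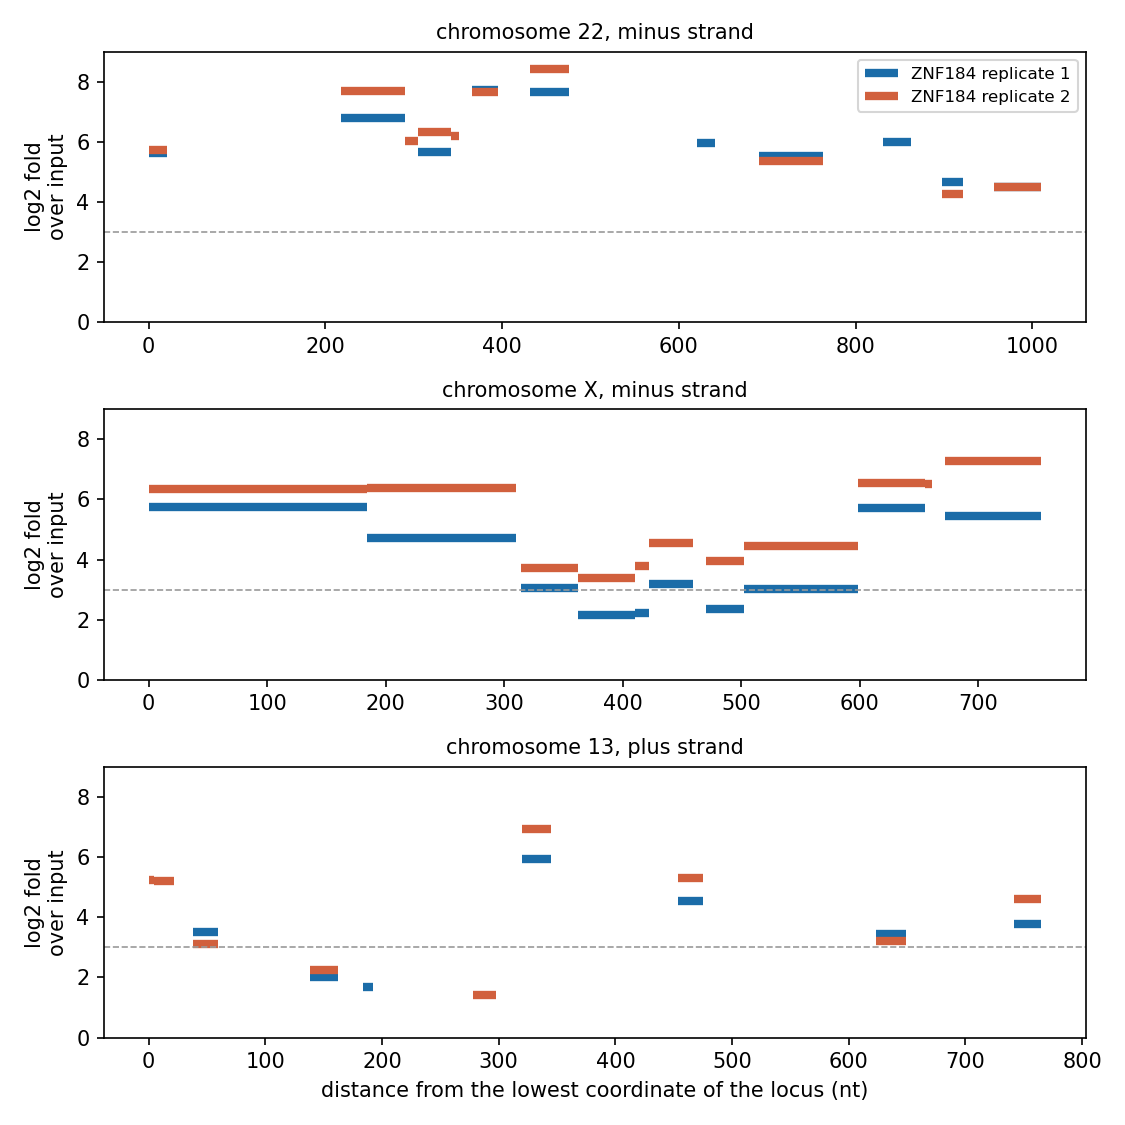
Log2 fold over input (y axis) of each ZNF184 region by its distance in nt from the lowest coordinate of the locus (x axis), for the stretches on chromosomes 22, X and 13, with a bar as long as the region for each replicate and a dashed line at 3. On chromosome 22 every bar lies above 4, on chromosome X the middle is lower than the ends, and on chromosome 13 the bars are short, with gaps between all but the first 2.

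On chromosome 13, plus strand, narrow regions were spread over 765 nt (chr13:92002872-92003636), with gaps between all but the first 2, which abut. It was singled out after its values were seen. The strongest, chr13:92003192-92003216, is 25 nt wide and had a log2 fold of 5.94 in replicate 1, from 45 eCLIP reads against 1 input read, and 6.95 in replicate 2, from at least 81 against at least 1. The Clopper-Pearson interval of the replicate 1 fold was 3.39 to 11.27, for counting error only. At chr13:92003326-92003346 the folds were 4.53 and 5.31, and at chr13:92002910-92002930 they were 3.50 and 3.11. At chr13:92003614-92003636 they were 3.77 and 4.61, where only replicate 2 passed the p threshold. At chr13:92003495-92003520 they were 3.45 and 3.20, from 8 and 6 eCLIP reads against 1 input read, and neither passed. All 8 peaks of replicate 1 and all 10 of replicate 2 in this stretch were at most 30 nt wide. The 9 other libraries together had 5 peaks there and none was significant, the highest with a log2 fold of 3.07 in RNF219.

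Narrow peaks were common among all deposited ZNF184 peaks, significant or not. Peaks of 18 to 26 nt made up 19.9% of replicate 1 and 20.3% of replicate 2, against 13.3% to 16.5% in the 9 other libraries. The median width was 29 and 28 nt in ZNF184 and 31 to 36 nt elsewhere. Among significant peaks alone it was 36 and 37 nt in ZNF184, within the 24.5 to 58 nt of the other libraries. The difference over all deposited peaks was noticed in the data and is given with no test.

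Outside these stretches, chr12:124923634-124923723 on the minus strand had log2 folds of 6.09 and 6.50, with no peak in any other library. At chr3:49940108-49940128 on the minus strand the folds were 5.80 and 5.93, from 41 and 40 eCLIP reads against 1 input read, again with no other library. At chr19:2341210-2341265 on the plus strand they were 5.84 and 5.78, where 3 other libraries had peaks of at most 1.30. At chr17:79222855-79222890 on the minus strand they were 5.77 and 5.66, with no other library. The replicates differed by 0.41 at most at these 4 regions. They were chosen by the lower of the replicate folds, which favours regions where both are high, so this closeness is no support.

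Some of the highest folds were shared with other proteins. At chr17:18965404-18965444 on the plus strand, ZNF184 had 6.55 and 8.72, while RANGAP1 had 8.93 and 8.85, VIM 8.30 and 8.01, NUMA1 6.43 and 7.84, and AIFM1 6.30 and 5.69. The ZNF184 values lay among those of the other proteins. At chr6:10887839-10887859 on the plus strand, ZNF184 had 7.07 and 8.19, and the other libraries ran from 0.66 to 5.31, below both. At chr19:48112258-48112282 ZNF184 had 9.13 and 7.31, and VIM had 6.36 and 6.80. At chr3:39093667-39093696 ZNF184 had 6.33 and 6.72, and VIM 4.60 and 4.71. At chr6:31958266-31958286, significant in all 5 other proteins, ZNF184 had 5.42 and 6.14 and the highest other value was 7.48. These are folds against different inputs, so that their order was not tested.

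**Figure D3:**
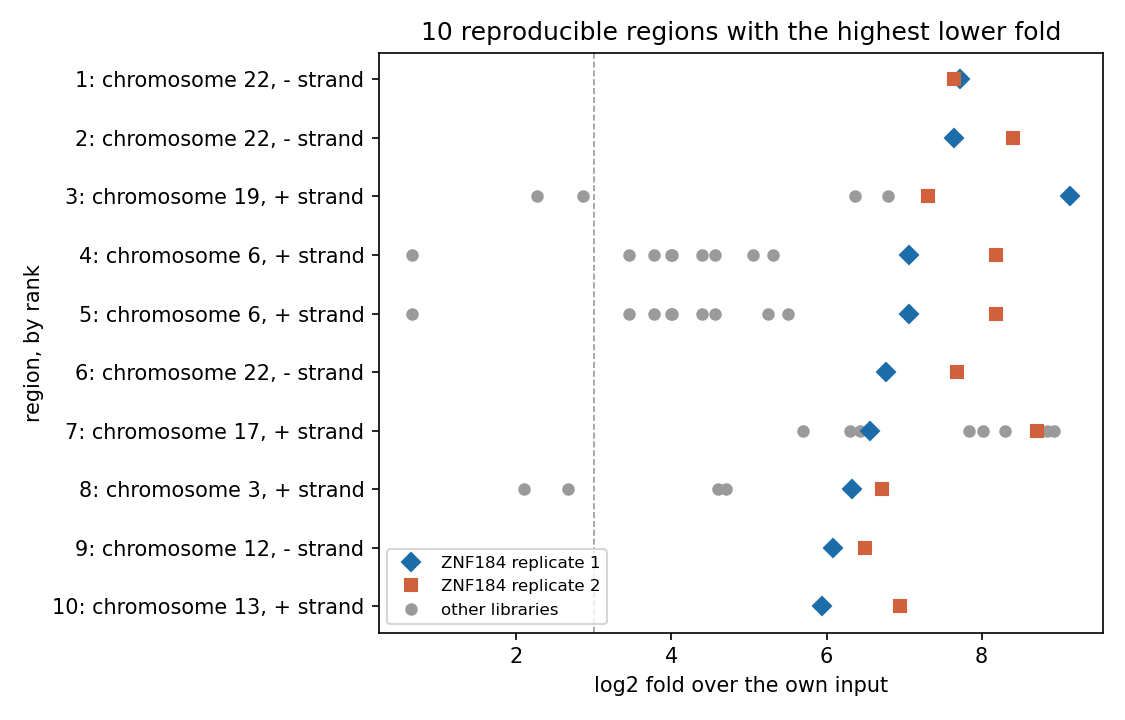
Log2 fold over the own input (x axis) at the 10 reproducible regions with the highest lower-of-replicates fold, by rank (y axis), for ZNF184 replicate 1 (diamonds), replicate 2 (squares) and each other library with a peak there (grey circles), with a dashed line at 3. The chromosome 12, 13 and 22 regions show ZNF184 alone, and on chromosome 17 the other libraries span both ZNF184 values.

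Reproducible regions were mostly single. With regions within 10000 nt on a strand joined, the 550 formed 433 loci, of which 361 held 1 region. Only 11 loci held at least 4, with 56 regions in all. Beside the chromosome 22 and X stretches, the locus chr16:705940-730767 on the plus strand held 8 regions spread over 24828 nt, with folds from 3.03 to 4.25 in replicate 1 and from 3.00 to 5.37 in replicate 2. Its strongest was chr16:722592-722643 with 4.25 and 5.37, from 14 and 27 eCLIP reads against 1 input read. The locus chr3:49049814-49051335 on the plus strand held 5 regions in 1522 nt, from 3.03 to 3.82 in replicate 1 and from 3.09 to 3.81 in replicate 2.

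The other 7 loci held 4 regions each. At chr15:75650992-75653265 on the minus strand, the strongest region by replicate 1, chr15:75651600-75651654, had 5.53 and 5.93. At chr19:49990877-50001058 on the plus strand, 3 regions lay between 3.21 and 4.42 in both replicates and chr19:50000992-50001058 had 4.34 and 6.02, from 89 and 255 eCLIP reads against 6 input reads in each. At chr1:1234028-1234886 on the minus strand, replicate 2 was higher at all 4, with medians of 3.27 and 4.57. The loci chr19:2337936-2343202 and chr21:45739337-45745583 on the plus strand had medians of 4.02 and 3.79, and of 4.22 and 4.63. The loci chr17:79221044-79222974 and chr17:80008033-80018449 on the minus strand had medians of 3.82 and 3.98, and of 3.96 and 3.84.

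Large loci were not always seen in both replicates. Of 36 loci with at least 8 significant regions in either replicate, 25 had significant regions in both, 4 in replicate 1 only (51 regions) and 7 in replicate 2 only (73 regions). The regions of the replicates in these 25 need not coincide. On the minus strand, chr22:50686730-50705154, chr17:80109744-80115114 and chr2:74689950-74701939 are among the 25 and held no reproducible region. The size of 8 was set after the values were seen. At chr13:23906850-23914998 on the minus strand, replicate 1 had 17 significant regions among 26 peaks with a median log2 fold of 3.25, and replicate 2 had 11 peaks, none significant, with a median of 1.35. At chr11:2671841-2690196 on the minus strand, replicate 1 had 14 significant regions among 52 peaks, and replicate 2 had 6 peaks with a median of 0.32. The other replicate 1 loci were chr2:238992162-238996861 with 12 regions and chr6:111694252-111697323 with 8.

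In replicate 2 only, chrX:73070365-73072514 on the minus strand had 16 significant regions among 38 peaks, while replicate 1 had 8 peaks with a median of -0.24. It lies on the strand of the chromosome X stretch above, and VIM had 3 significant peaks there in replicate 1 and 9 in replicate 2. At chr12:48132002-48142780 on the minus strand, replicate 2 had 11 peaks, all significant, with a median of 4.42, and replicate 1 had none. VIM replicate 2 had 6 significant peaks there and NUMA1 replicate 1 had 1. At chr2:178214044-178216013 on the minus strand, all 10 peaks of replicate 2 were significant and replicate 1 had none. At chr1:212782146-212793923 on the plus strand, replicate 2 had 10 significant regions, VIM replicate 2 had 2 significant peaks and RANGAP1 replicate 2 had 1. The others were chr22:29190587-29196530 with 9, chr5:137802025-137804678 with 9 and chr12:57624598-57628364 with 8, where VIM replicate 2 had 1 significant peak. At the 4 loci of replicate 1 alone, no other library had a significant peak. The part of the other proteins in these loci was not tested.

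**Figure D4:**
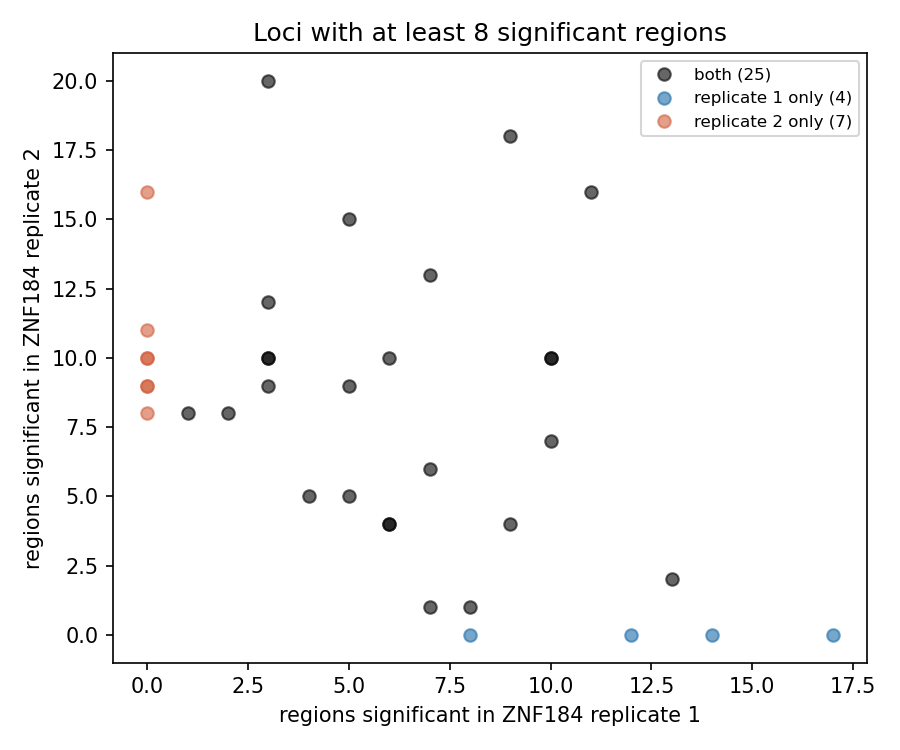
Number of regions significant in ZNF184 replicate 1 (x axis) and in replicate 2 (y axis) at the 36 loci with at least 8 significant regions, 1 point per locus, darker where loci coincide. The 4 loci of replicate 1 alone lie at 0 of replicate 2, the 7 of replicate 2 alone lie at 0 of replicate 1, and 25 have regions of both.

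Single regions could also differ widely. The widest difference among regions significant in 1 replicate was at chr8:103663742-103663803 on the minus strand, with 0.45 in replicate 1, from 4 eCLIP and 4 input reads, and 4.42 in replicate 2, from 14 and 1. At chr16:15021921-15022085 on the plus strand the folds were 0.27 and 4.07. At chr14:103804180-103804318 on the plus strand they were -0.66 and 3.07, and all 9 other libraries were below input there. At chr20:26190219-26190255 on the minus strand they were 1.03 and 4.52. In the other direction, chr19:56671850-56671992 on the plus strand had 3.91 in replicate 1, from 11 eCLIP reads and 1 input read, and 0.61 in replicate 2. Replicate 2 was the higher at 4 of these 5 regions.

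ZNF184 was below input in both replicates at 2002 regions, 10.0% of those with a peak in both. At 49 of them both log2 folds were -2 or lower, and 21 of the 49 were on the mitochondrial chromosome. The 102 shared regions of that chromosome had medians of -0.20 and -0.32, against 0.96 and 0.93 for the other shared regions. The same chromosome also held 3 reproducible regions above input, within chrM:617-1656 on the plus strand, with folds from 3.02 to 5.13 in replicate 1 and from 3.41 to 4.53 in replicate 2, and each was also significant in another protein. The lowest region by its higher replicate was chr14:50053531-50053593 on the plus strand with -5.42 and -3.84, and all 9 other libraries were below input there, from -5.15 to -1.44. At chr12:69238162-69238184 on the minus strand the folds were -3.82 and -4.07, with no peak in any other library. The remaining 3 of the 5 lowest were pieces on the plus strand of the mitochondrial chromosome, the lowest of them by its higher replicate chrM:1858-1867 with -5.08 and -3.64.

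The share of significant peaks on each chromosome was set against the 9 other libraries, with the library as the replicate. Chromosome 16 held 8.09% ± 0.07 (SD, n = 2) of the significant ZNF184 peaks against 3.98% in the other libraries (n = 9, range 0% to 8.32%). Chromosome 19 held 8.37% ± 0.32 against 5.39% (range 0% to 9.88%). Chromosome 22 held 4.20% ± 0.18 against 2.38% (range 0% to 5.26%). The mitochondrial chromosome held 0.21% ± 0.08 against 6.35%, where the others ranged from 0% to 23.5%. Of all deposited ZNF184 peaks, significant or not, replicates 1 and 2 had 5.29% and 5.69% on chromosome 16, 6.13% and 6.69% on chromosome 19, 2.37% and 2.56% on chromosome 22, and 0.28% and 0.33% on the mitochondrial chromosome. By an exact permutation test (2-sided, 55 choices of 2 from 11 libraries), none of the 24 chromosomes had an unadjusted p under 0.05. The lowest, for chromosome 16, was 0.11, or 0.90 after Benjamini-Hochberg adjustment over the 24. The smallest p the 55 choices allow is 0.0182, and no adjusted p could fall below 0.05 for a single chromosome alone. Replicate libraries of 1 protein share an input, so the 11 libraries, from 6 proteins, are not independent units.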

How the data were processed

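Per the submitters' processing notes, cutadapt, STAR, GATK, Picard and SAMtools were used with hg19, with no versions and no peak caller named. Lists were deposited 1 per eCLIP library, none pooled, and give position, strand, the authors' −log10 p against input (at most 400, and 0 below input) and the authors' log2 fold over input. Reads behind the ZNF184 folds were recovered as whole-number ratios times 1 constant per library, with p matched. Where p was 0 or at a limit, only the least reads are known ("at least"). Read recovery and merging were tested on simulated data.

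Regions, loci (10000 nt) and the exact permutation test used Python 3.11.15, numpy 2.4.6, pandas 2.3.3 and scipy 1.17.1. A region takes its strongest peak. Named regions are the 10 with the highest lower-of-replicates fold, overall and among those significant in no other protein, the loci with the most reproducible regions (11 by ties), the 5 most different, the 5 lowest and the 5 shared with most proteins. Others were chosen after their values were seen. Members and rules were chosen with earlier results of these data known. Gene names, gene lists, transcript parts and base composition were planned and not analysed here, since the tables at hand are of another build. The series calls the replicates biological. The permutation p-values measure the spread between these libraries, taken as independent although those of 1 protein share an input. The authors' −log10 p of a peak, behind each significant call, compares reads of 1 eCLIP library with reads of 1 input. It measures counting error and no spread between libraries.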

Additional observations from a re-analysis of the deposited data

How the results depend on the processing

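Counts followed the thresholds. With a log2 fold of at least 4 in place of 3, replicate 1 had 670 significant peaks, replicate 2 had 1139 and 202 regions were reproducible. With at least 2 these were 4289, 4348 and 1126. With a −log10 p of at least 5 they were 991, 1613 and 334. Reproducible regions numbered 434 with peaks of at least 20 nt only and 534 with an overlap of at least 0.5 of the shorter peak, both within 1.5 times of 550. Counting significant peaks of other proteins within 50 nt left 455 of 466 regions, and the widest peak in place of the strongest gave a median lower fold of 3.67.

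For chromosome shares, 0 of 24 had an unadjusted p under 0.05 by the exact permutation test, and 0 had an adjusted p under 0.05 under any alternative (lowest adjusted p 0.81). Counting merged regions once gave the same values as the peaks and tests nothing. Over the other 7 alternatives and all 24 chromosomes, 148 of 168 differences kept their direction, among them all those of chromosomes 16, 19, 22 and M, which were picked for print after their values were seen. The other 20 reversed, in percentage points of ZNF184 minus others. With a fold of at least 4, these were chromosomes 1 (0.18), 4 (-0.53), 11 (-0.73), 20 (-0.11) and X (1.08), and with at least 2, chromosomes 12 (-0.25) and 20 (-0.057). With a −log10 p of at least 5, they were chromosomes 1 (0.28), 4 (-0.42), 10 (0.69), 11 (-0.64), 12 (-0.11) and X (0.14). Without RNF219, they were chromosomes 12 (-0.048), 20 (-0.15) and X (1.97). Leaving out either ZNF184 replicate gave a range of -0.61 to 0.68 for chromosome 12, -0.45 to 0.88 for chromosome 17, -0.15 to 0.42 for chromosome 20 and -1.34 to 0.78 for chromosome X, with the reversed value without replicate 1 for chromosomes 17 and X and without replicate 2 for the other two. The cause was not tested. With 1 ZNF184 library the smallest p is 0.10. Replicate numbers of different proteins do not pair samples. With the replicate block (30 choices), the chromosome 16 difference was 4.14 points with an exact permutation p of 0.13, and no call changed. Base composition, transcript parts and gene lists were not run. Depth limits regions beside 1 input read, where 10 or 11 eCLIP reads decide the call.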
